A study of Mus musculus with 8 samples.

Results

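The genes Slc6a13, Slc6a12 and Slc6a6 encode membrane transporters of GABA, betaine and taurine. They were taken by symbol from a table of 29426 genes measured in sorted mouse CD8+ T cells, and so are 3 of 29426. They were chosen by their counts per library in this table and by the differences between groups in them, so their levels and differences are described below without a test. All 3 passed the expression filter that left 12313 genes for testing. The 8 RNA-seq libraries fall into 4 groups of 2: in WT there are WT-TN and WT-MP, and the mCre counterparts are mCre-TN and mCre-MP. WT and mCre are genotype labels, TN and MP are subset labels, and all groups share the spleen as source. The series title joins miR-29 with Cre and the design text speaks of Cre- and WT mice, but neither spells out the allele behind mCre, its promoter or the mouse strain. The protocol covers both adult and neonatal spleens without saying which library had which. CD8+ cells were bound to magnetic beads, then sorted by CD8, CD4, CD44 and CD122. Nothing in the labels says that replicates came from separate mice, so p-values measure only the spread between libraries, which may be technical.

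Total counts per library ranged from 13479586 to 30057658, with 14834 to 15722 genes detected. Within groups, the replicates' counts differed by more than sampling noise (chi-square divided by its degrees of freedom, 4.32 to 6.44). The 4 CD8 T cell markers used (Cd3e, Cd3g, Cd8a and Cd8b1) summed to between 3940 and 4270 CPM, which is the count of a gene scaled to a library size adjusted by the trimmed mean of log ratios (TMM). On the same scale, B cell markers summed to at most 2.67. Of the microRNA genes, Mir29b-2 and Mir29c had 0 counts in every library and Mir29a had 3 counts over all 8 libraries, too few to check the genotype label. Mir29b-1 had no row under that name.

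The SLC6 proteins carry small molecules into the cell together with sodium and chloride ions. Slc6a13 encodes GAT2, which takes up GABA and also taurine and is best known from liver and kidney. Slc6a12 encodes BGT1, which takes up betaine and GABA and helps kidney cells balance the salt outside them, under the transcription factor NFAT5. Slc6a6 encodes TauT, the main taurine transporter of many tissues. GABA is an inhibitory transmitter in the brain that immune cells can also sense, while taurine and betaine are organic osmolytes, solutes that cells store to hold their volume.

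All 3 genes lie on the plus strand of chromosome 6 (build GRCm38, GENCODE M21). Slc6a13 (ENSMUSG00000030108.14) spans chr6:121300227-121337733, and Slc6a12 (ENSMUSG00000030109.15) spans chr6:121343076-121365775. Only 5342 bases separate the end of the former from the start of the latter. Slc6a6 (ENSMUSG00000030096.8) spans chr6:91684053-91759066, 29.5 Mb away. Their coding sequences are related, which matters here because Slc6a12 had few reads beside a neighbour with very many. On the opposite strand, an intron of Slc6a13 holds the microRNA gene Gm24855. It had 3 and 5 counts in WT-TN and WT-MP, against 21 and 13 in mCre-TN and mCre-MP. Also on the opposite strand, an exon of the predicted gene Gm44981 overlaps an exon of Slc6a6. Without a stated strand setting, reads from that overlap cannot be told apart. Over the coding sequence Slc6a13 and Slc6a12 were 73.9% identical, against 67.3% for Slc6a13 and Slc6a6 and 67.6% for Slc6a12 and Slc6a6. The longest run of identical bases was 53 for the first pair and 20 for each of the others. The stretch of 83 bases around the run of 53 follows for each gene, spliced across an intron, with capitals where all 3 genes have the same base.
Slc6a13, chr6:121302828-121318248, exons 2 and 3 of 15: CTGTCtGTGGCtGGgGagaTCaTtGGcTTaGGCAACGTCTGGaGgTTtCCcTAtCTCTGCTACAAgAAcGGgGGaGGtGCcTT
Slc6a12, chr6:121347557-121351945, exons 2 and 3 of 15: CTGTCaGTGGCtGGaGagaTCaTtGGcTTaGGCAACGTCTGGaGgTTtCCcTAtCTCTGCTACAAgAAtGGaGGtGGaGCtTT
Slc6a6, chr6:91723446-91724848, exons 3 and 4 of 15: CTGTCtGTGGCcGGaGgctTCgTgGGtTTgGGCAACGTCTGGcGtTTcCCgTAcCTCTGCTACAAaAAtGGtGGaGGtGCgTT
Slc6a12 matched Slc6a13 at 76 of the 83 positions and Slc6a6 matched it at 65. No source used here says how reads that fit several places were counted. Whether some Slc6a12 reads came from Slc6a13 was not tested.

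Because the series title names miR-29, the mature sequences of that family are shown, from RefSeq (GRCm38.p6), with the seed, bases 2 to 8, in capitals. A microRNA lowers an mRNA mainly by pairing its seed with a site in the 3′ untranslated region.
mmu-miR-29a-3p: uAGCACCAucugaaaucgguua
mmu-miR-29b-3p: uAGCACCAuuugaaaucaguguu
mmu-miR-29c-3p: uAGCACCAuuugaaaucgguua
All 3 microRNAs share one seed, whose site in an mRNA reads TGGTGCT. The longest annotated 3′ untranslated regions of Slc6a13 (317 bases), Slc6a12 (784 bases) and Slc6a6 (4009 bases) held 0 such sites. Among 11689 tested genes with an annotated region, 1952 (16.7%) held at least 1. The genes Mir29a (chr6:31062660-31062747) and Mir29b-1 (chr6:31063023-31063093) lie on the same chromosome, 90.2 Mb from Slc6a13.

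RefSeq promoter windows, from 250 bases before to 50 after a transcript start, were found for Slc6a13 (3 windows) and Slc6a12 (5 windows). The first window of each is shown because these neighbours were both higher in mCre. Capitals mark TGGAAA, the core that NFAT5 and other NFAT proteins bind, searched on both strands.
Slc6a13, chr6:121300038-121300337, plus strand: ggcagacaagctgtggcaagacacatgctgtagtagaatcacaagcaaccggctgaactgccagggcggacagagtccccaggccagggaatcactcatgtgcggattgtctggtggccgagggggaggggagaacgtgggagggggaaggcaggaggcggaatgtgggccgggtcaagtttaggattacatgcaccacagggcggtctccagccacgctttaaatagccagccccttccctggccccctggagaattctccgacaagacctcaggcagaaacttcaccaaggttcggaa
Slc6a12, chr6:121342324-121342623, plus strand: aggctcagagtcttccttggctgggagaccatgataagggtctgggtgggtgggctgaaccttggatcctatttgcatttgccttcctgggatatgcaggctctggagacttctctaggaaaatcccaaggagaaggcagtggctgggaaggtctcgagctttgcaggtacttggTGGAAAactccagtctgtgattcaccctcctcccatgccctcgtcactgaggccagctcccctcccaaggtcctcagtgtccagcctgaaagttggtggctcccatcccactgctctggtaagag
TGGAAA occurred once in this Slc6a12 window and once in another Slc6a13 window (chr6:121303389-121303688), and in 0 of the other 6 windows. It occurred in 21.4% of 32851 mouse promoter windows of the same length. TATAAA, the core of the TATA box, was in 0 of the 8 windows, against 13.6% of all windows, a search added after the values were seen.

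Slc6a13, the GABA transporter gene, had more reads than almost any gene in these cells and stood at more than double the level in mCre. WT-TN libraries had 638.8 and 683.8 CPM, and WT-MP libraries had 632.2 and 650.2 CPM. The mCre-TN libraries had 1719 and 1619 CPM, and the mCre-MP libraries had 1450 and 1419 CPM. Every mCre library lay above every WT library, and within mCre both MP libraries lay below both TN libraries. By CPM, with no correction for length, it ranked between 178 and 203 among all 29426 genes in the WT libraries and between 43 and 60 in the mCre libraries. The fitted log2 fold change of mCre against WT was 1.34 (SE 0.0507, 2.52-fold) in TN and 1.16 (SE 0.0505, 2.24-fold) in MP. Among 8661 genes with a mean log2 CPM of at least 3, these were the 16th and 22nd greatest differences in size. Among all 12313 tested genes, including those with few reads, they ranked 248 and 272. MP against TN gave -0.04 (SE 0.0501) in WT, where the libraries overlapped, and -0.22 (SE 0.0496) in mCre, where they did not. The difference between the genotype effects of the subsets was -0.17 (SE 0.0706) on the log2 scale. Leaving out any 1 library kept the genotype difference between 1.29 and 1.38 in TN and between 1.13 and 1.18 in MP.

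Slc6a12, the betaine and GABA transporter gene next to Slc6a13, was scarce but followed the same order between genotypes. WT-TN libraries had 1.035 and 1.289 CPM (14 and 24 counts), and WT-MP libraries had 1.036 and 0.8739 CPM (24 and 19 counts). The mCre-TN libraries had 4.811 and 2.31 CPM (147 and 45 counts), and the mCre-MP libraries had 2.693 and 2.715 CPM (49 and 66 counts). Again every mCre library lay above every WT library, but the mCre-TN replicates lay far apart. The log2 fold change of mCre against WT was 1.63 (SE 0.353, 3.09-fold) in TN and 1.49 (SE 0.358, 2.82-fold) in MP. Without mCre-TN replicate 1 the TN value was 0.976. MP against TN gave -0.30 (SE 0.418) in WT and -0.43 (SE 0.301) in mCre, with overlapping libraries in both. Without mCre-TN replicate 1 the value in mCre was 0.23, the opposite sign. Between 1.34 and 1.91 Slc6a12 reads were counted per 1000 Slc6a13 reads in 7 of the libraries, and 2.80 in mCre-TN replicate 1. Across the 8 libraries the log2 CPM of the pair had a Pearson r of 0.944; the libraries form 4 groups, so this describes mainly the group means.

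Slc6a6, the taurine transporter gene, followed the subset and not the genotype. WT-TN libraries had 90.97 and 80.46 CPM, and WT-MP libraries had 62.87 and 62.14 CPM. The mCre-TN libraries had 76.74 and 80.27 CPM, and the mCre-MP libraries had 62.76 and 56.81 CPM. All 4 MP libraries lay below all 4 TN libraries. The log2 fold change of MP against TN was -0.45 (SE 0.067) in WT and -0.39 (SE 0.0661) in mCre. For mCre against WT it was -0.12 (SE 0.0657) in TN, where the groups were separated only by 80.46 against 80.27 CPM, and -0.07 (SE 0.0673) in MP, where they overlapped. The value in TN was -0.04 without WT-TN replicate 1 and -0.22 without WT-TN replicate 2. Its log2 CPM had a Pearson r of -0.12 with Slc6a13 and -0.07 with Slc6a12 over the 8 libraries.

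**Figure D1:**
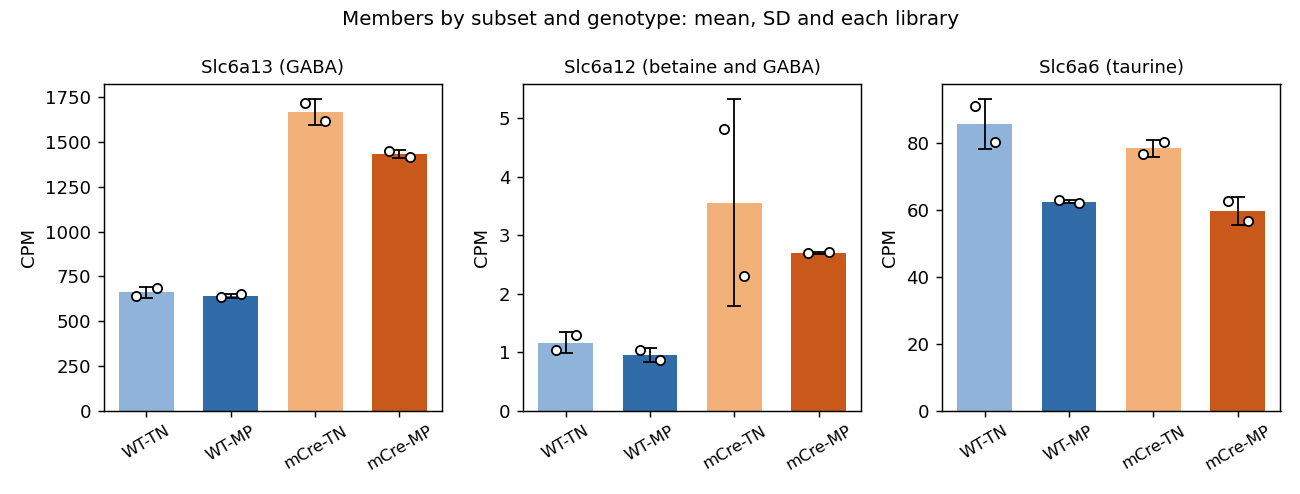
CPM on a linear axis for Slc6a13, Slc6a12 and Slc6a6, each point 1 library and each bar the mean of the 2 libraries of a group, with SD. Slc6a13 is at 632.2 to 683.8 CPM in the WT libraries and 1419 to 1719 CPM in the mCre libraries, whereas Slc6a6 separates by subset.

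Between genotypes, the libraries of the groups did not overlap for 3 of the 3 genes in TN and for 2 in MP, as for 45.8% and 48.9% of all tested genes. Between subsets they did not overlap for 1 in WT and 2 in mCre, as for 63.9% and 67.1% of all tested genes. Such separation of 2 libraries from 2 is far commoner than a call at an adjusted p under 0.05, which 3.47% and 4.04% of tested genes had between genotypes and 31.7% and 32.5% between subsets. The genes were chosen with these contrasts known, and nothing is read from those counts. The comparisons share libraries: each genotype and subset contrast uses groups that another one also uses.

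Between genes, levels can be compared only per length of exon. Slc6a13 was the highest, with 228 ± 11 CPM per kb of exon in WT-TN and 221 ± 4.39 for WT-MP, against 575 ± 24.3 in mCre-TN and 494 ± 7.5 for mCre-MP (SD, n = 2). Slc6a6 followed with 10.1 ± 0.879, 7.39 ± 0.0607, 9.28 ± 0.295 and 7.07 ± 0.498 CPM per kb in the same order of groups. Slc6a12 was the lowest, with 0.381 ± 0.0589, 0.313 ± 0.0376, 1.17 ± 0.579 and 0.886 ± 0.00509 CPM per kb. This order of the genes held in each of the 8 libraries. Within Slc6a13, WT-MP and WT-TN overlapped, mCre-MP came next and mCre-TN was highest. Within Slc6a12, the WT groups overlapped each other and so did the mCre groups. Within Slc6a6, mCre-MP and WT-MP overlapped, and mCre-TN lay just under WT-TN.

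**Figure D2:**
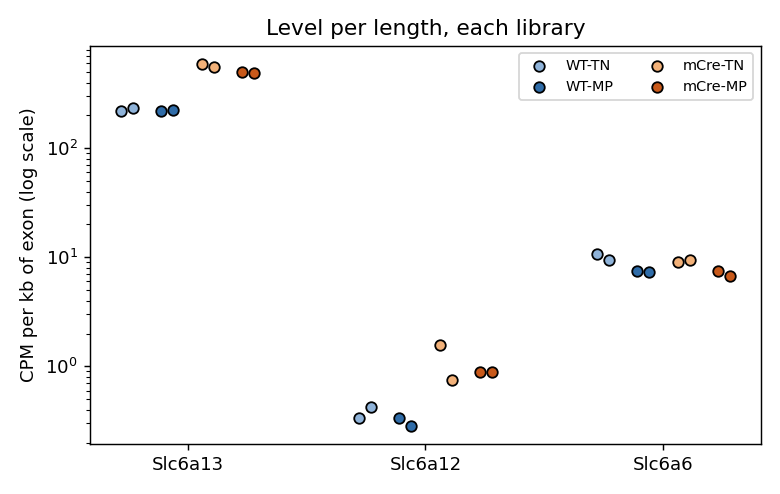
Level per length in CPM per kb of exon, on a log axis, for the 3 transporter genes, with 1 point per library. Slc6a13 lies between 221 and 575 CPM per kb by group mean and Slc6a12 between 0.313 and 1.17, with Slc6a6 between them.

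Markers of other cell types also moved with the groups. The 9 macrophage and monocyte markers, none at 0 in all libraries, summed to 24.8 to 47.4 CPM in the WT libraries and 12.9 to 17.2 CPM in the mCre libraries, the opposite direction to Slc6a13. The 7 erythroid and platelet markers summed to 14.1 to 24.2 CPM in WT and 25.5 to 63 CPM in mCre. The platelet markers Pf4 and Ppbp had at most 0.054 CPM in any library, and Hba-a2 overlapped between genotypes in both subsets. Hbb-bt had 16.475 and 15.507 CPM in replicate 2 of mCre-TN and mCre-MP, against 3.894 and 2.858 CPM in replicate 1. The 3 NK cell markers summed to at most 0.107 CPM in TN, to 11.8 to 15.8 CPM in WT-MP and to 5.06 to 7.03 CPM in mCre-MP. Of these, only Klre1 separated the genotypes in MP, with 9.499 and 12.373 CPM in WT-MP against 2.968 and 4.278 CPM in mCre-MP. Klrb1c and Ncr1 overlapped between WT-MP and mCre-MP. Like Slc6a6, the sum of the 3 CD4 T and Treg cell markers was lower in MP, with 8.06 to 10.7 CPM in TN and 2.37 to 3.5 CPM in MP. Most of that sum in TN was Cd40lg, with 6.621 to 8.868 CPM in TN and 1.209 to 2.098 CPM in MP. Foxp3 had 1.182 to 2.578 CPM in TN and 0.518 to 1.154 CPM in MP. Cd4 itself was not lower in MP, with at most 0.161 CPM in TN and 0.37 CPM in MP. The gamma-delta T cell marker Sox13 was also lower in MP, with 1.48 to 2.49 CPM in TN and 0.055 to 0.494 CPM in MP. It was the only gamma-delta marker measured, since Trdc and Tcrg-C1 had no row under those names. All these sums are below the lowest Slc6a13 value, 632.2 CPM. The macrophage and erythroid sums exceed every Slc6a12 value, as do the NK sums in MP and the CD4 and Treg sums in TN. So do the sums of the 4 dendritic cell markers, at 5.38 to 6.61 CPM over the libraries. The part of these other cell types in the differences of the 3 genes was not tested. In such sorted populations fewer cells carrying an mRNA and less of it per cell cannot be told apart.

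The genes next to Slc6a13 and Slc6a12 were compared because they are measures that did not choose the transporters. Within 250 kb lie 5 other protein-coding genes, and 4 passed the expression filter. In each genotype contrast 2 of the 4 were called higher in mCre and 1 lower by edgeR's quasi-likelihood test. Of all 12313 tested genes, 1.55% were called higher and 1.92% lower in TN, and 2.08% and 1.97% in MP. Usp18, which encodes a protease that removes ISG15 and restrains interferon signalling, had 104.3 and 96.89 CPM in WT-TN against 210.6 and 192.4 CPM in mCre-TN. In MP it had 74.39 and 68.35 CPM in WT against 175.5 and 137.7 CPM in mCre. The genotypes did not overlap in either subset, with log2 fold changes of 1.00 (SE 0.12, edgeR adjusted p = 0.00804) and 1.13 (SE 0.121, edgeR adjusted p = 0.00436). The call in TN was lost without WT-TN replicate 1 or replicate 2 (adjusted p up to 0.141 in edgeR), and that in MP without WT-MP replicate 2 or with only the compared groups fitted (up to 0.0779). Pex26, which anchors peroxisome import factors, rose by 0.52 in TN (SE 0.0658, edgeR adjusted p = 0.000135) and by 0.45 in MP (SE 0.0722, edgeR adjusted p = 0.00101). Its means were 82.5 ± 9.41 and 118 ± 3.75 CPM in WT-TN and mCre-TN, and 37.8 ± 0.515 and 51.5 ± 1.6 CPM in WT-MP and mCre-MP (SD, n = 2).

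Mical3, which encodes an oxidoreductase of vesicle transport, went the other way. WT-TN libraries had 7.39 and 4.726 CPM and mCre-TN libraries had 0.8836 and 0.6159 CPM. WT-MP libraries had 3.152 and 4.094 CPM and mCre-MP libraries had 0.1649 and 0.8638 CPM. The log2 fold change was -2.95 (SE 0.402, edgeR adjusted p = 0.000638) in TN and -2.69 (SE 0.443, edgeR adjusted p = 0.00242) in MP. The calls of Mical3 and Pex26 held in all 15 alternatives run. Tuba8, a tubulin gene between Pex26 and Usp18, was not called, with 0.73 in TN (edgeR adjusted p = 0.149) and 0.31 in MP (edgeR adjusted p = 0.705). None of the 4 had a called difference between its genotype effects in the subsets by edgeR (0 at an unadjusted p under 0.05, and 0 by DESeq2).

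In windows of distance chosen after the values were seen, 3 of 8 tested genes within 0.5 Mb of the Slc6a13 start were called between genotypes in each subset (37.5%), not counting the transporters. From 0.5 to 2 Mb it was 1 of 23 (4.35%) in each subset, namely Slc2a3, the glucose transporter GLUT3, which fell by 0.45 in TN and by 0.27 in MP on the log2 scale. From 2 to 5 Mb it was 0 of 51 in TN and 3 of 51 in MP (5.88%), and from 5 to 10 Mb 3 of 82 (3.66%) and 13 of 82 (15.9%). Over the whole chromosome 31 of 582 genes (5.33%) were called in TN and 37 of 582 (6.36%) in MP. The shares of all tested genes were 3.47% and 4.04%. Around Slc6a6, 6 of 8 neighbours within 250 kb were tested, and 0 were called between genotypes in TN or in MP by edgeR (0 and 1 at an unadjusted p under 0.05, and 0 by DESeq2 in both).

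**Figure D3:**
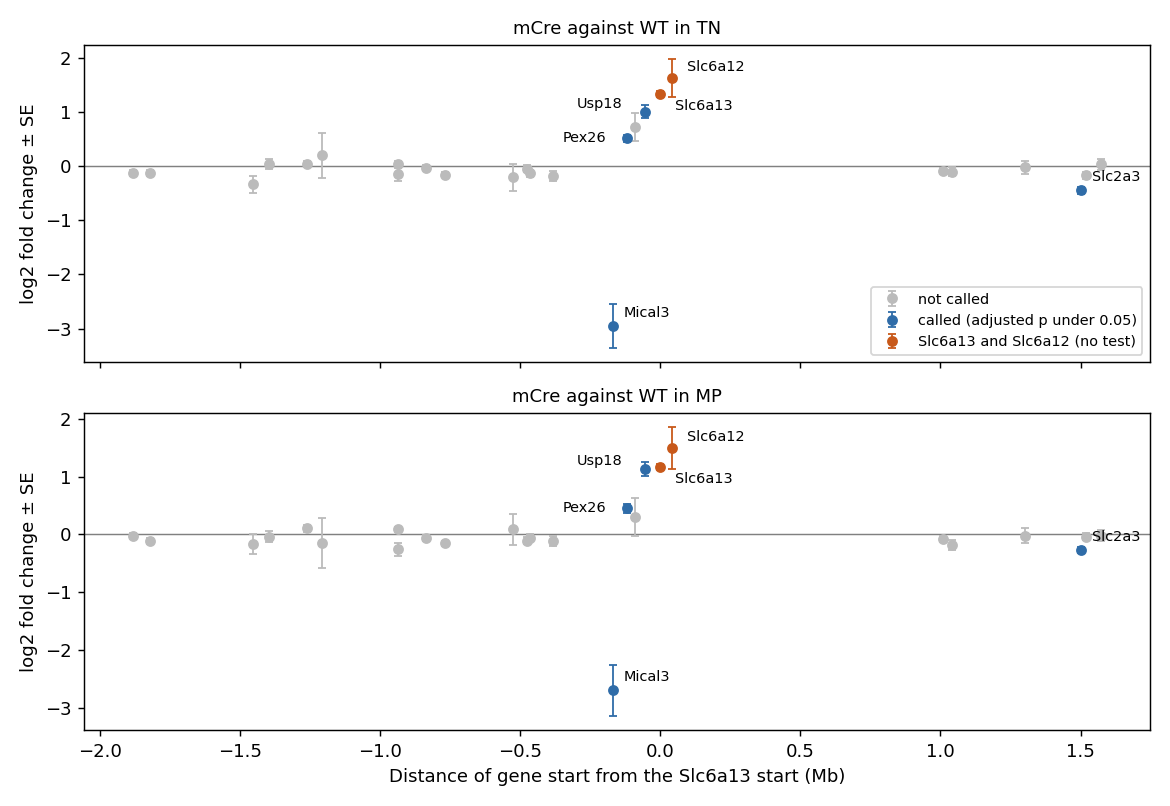
Log2 fold change of mCre against WT with its SE, in TN above and in MP below, for genes on chromosome 6 whose start lies within 2 Mb of the Slc6a13 start, by that distance in Mb. Genes with a mean log2 CPM of at least 0 are drawn. Pex26, Usp18, Slc6a13 and Slc6a12 lie above 0 near each other, with Tuba8, which was not called, between Pex26 and Usp18. Mical3 lies at -2.95 and -2.69, and Slc2a3 is the other called gene in this span.

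Genes whose pattern over the 8 libraries was most like each transporter were ranked by Pearson correlation of log2 CPM among 8416 genes with a mean log2 CPM of at least 3 (8417 for Slc6a12, which also had Slc6a13 among them). For Slc6a13 they were Lars (r = 0.982), Dcaf17 (0.980), Fkbp15 (0.968), Pml (0.967), Samd9l (0.964), Zbp1 (0.963), Nefh (0.962) and Ifi27 (0.959). Dcaf17 had means of 22.8 ± 3.21 and 24.9 ± 1.46 CPM in the WT groups (TN, then MP), and 45.7 ± 1.07 and 43.9 ± 1.58 CPM in mCre-TN and mCre-MP (SD, n = 2). Fkbp15 differed far less, with 109 ± 1.67 CPM in WT-TN and 117 ± 1.69 CPM in mCre-TN, so a like pattern did not mean a like size. For Slc6a12 they were Rbm3 (0.968), Fkbp15 (0.963), Nmd3 (0.947), Slc6a13 (0.944) and Hnrnpa3 (0.941). For Slc6a6 they were Anapc5 (0.994), Lrig1 (0.993), Npepl1 (0.985), Git2 (0.984) and Hnrnpl (0.982). Lrig1, a receptor regulator, had means of 29.1 ± 5.58 and 24.6 ± 0.761 CPM in WT-TN and mCre-TN against 17.4 ± 1.14 and 16.3 ± 1.69 CPM in the MP groups. Ranked by Spearman correlation, 0 of the 8, 2 of the 5 and 1 of the 5 genes were named again.

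Of 113 genes in 7 lists around these transporters, 66 were tested. Between mCre and WT, 2 were called higher and 4 lower in TN (9.09%, against 3.47% of all tested genes), and 2 higher and 1 lower in MP (4.55%, against 4.04%). Between MP and TN, 12 were higher and 20 lower in WT (48.5%, against 31.7%), and 11 higher and 17 lower in mCre (42.4%, against 32.5%). The interaction of genotype and subset had 0 calls by edgeR among the 66 (5 at an unadjusted p under 0.05, and 0 by DESeq2), with 0.13% of all tested genes called. By direction, the shares of all tested genes called higher and lower were 1.55% and 1.92% for genotype in TN, 2.08% and 1.97% for genotype in MP, 16.2% and 15.6% for subset in WT, 17% and 15.5% for subset in mCre, and 0.0487% and 0.0812% for the interaction. The median log2 fold change of all tested genes lay within 0.01 of 0 in every comparison.

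The other genes of the SLC6 family had few reads. Of 17 listed, 3 were tested. Slc6a11, a GABA transporter, had 1 count in all. Slc6a19, a neutral amino acid transporter, had 3.769 and 2.148 CPM in WT-TN against 0.7527 and 0.6159 CPM in mCre-TN. It fell by 2.06 on the log2 scale in mCre-TN (SE 0.399, edgeR adjusted p = 0.00577), a call lost without WT-TN replicate 1 or mCre-TN replicate 2 (adjusted p up to 0.0793 in edgeR). It also fell by 2.07 from TN to MP in WT (SE 0.405, edgeR adjusted p = 0.000554). Slc6a8, the creatine transporter, had 1.48 ± 0.109 CPM in WT-TN and 1.56 ± 0.022 CPM in mCre-TN (SD, n = 2). Slc6a20b had 45 counts in mCre-TN replicate 1 and 9 to 15 in each other library, and neither gene was called between genotypes.

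Genes for making and breaking down GABA were not called between genotypes. Of 12 listed, 8 were tested, with 0 calls by edgeR in TN and 0 in MP (2 at an unadjusted p under 0.05 in each, and 0 by DESeq2 in each) and medians of -0.05 and -0.02. Gad1 and Gad2, the enzymes that make GABA from glutamate, had 0 and 2 counts over all libraries, and 0 allows up to 0.0177 CPM (3 counts over the 8 libraries, counting error only). Aldh5a1, the last enzyme of GABA breakdown, rose from TN to MP in both genotypes. It had 5.69 and 6.66 CPM in WT-TN against 15.11 and 15.32 CPM in WT-MP, a log2 fold change of 1.29 (SE 0.148, edgeR adjusted p = 1.23e-06), and the change in mCre was 1.18 (SE 0.145, edgeR adjusted p = 2.78e-06). The list's calls between subsets were 3 higher in WT and 1 higher in mCre. Among them in WT was Glud1, glutamate dehydrogenase (0.16, edgeR adjusted p = 0.0328), a call lost without WT-TN replicate 1, without WT-MP replicate 2 or with scaling to total counts (up to 0.332).

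The GABA receptor list had 7 of 24 genes tested and 0 calls by edgeR between genotypes in either subset (2 at an unadjusted p under 0.05 in each, and 0 by DESeq2 in each), with medians of 0.02 in TN and -0.08 in MP. Gabbr1, a subunit of the metabotropic GABA-B receptor, was lower in MP. It fell from 111 ± 14.6 CPM in WT-TN to 77.7 ± 1.71 CPM in WT-MP and from 98.1 ± 2.72 to 69.4 ± 3.05 CPM in mCre (SD, n = 2). The log2 fold changes were -0.50 in both genotypes (edgeR adjusted p = 3.93e-05 and 4.15e-05). Gabrr2, a rho subunit, fell by 0.70 in WT (edgeR adjusted p = 0.00882, 0.102 without WT-MP replicate 2) and by 0.53 in mCre (edgeR adjusted p = 0.0418). The latter call was lost in 7 of 15 alternatives, among them DESeq2 and the omission of any mCre library (up to 0.244). Between subsets 2 were called higher and 3 lower in WT, and 2 and 2 in mCre, but the genes called higher were Gabarap and Gabarapl2, which act in autophagy. The related gene Gabarapl1, also no receptor subunit, was 1 of the 3 called lower in WT (-0.74, edgeR adjusted p = 0.0179). DESeq2 called 4 genes of this list between subsets in WT, against 5 by edgeR, and Gabarapl1 was not among the 4. Gabarap in mCre (0.16, edgeR adjusted p = 0.0194) was lost with scaling to total counts or without any mCre library (up to 0.123).

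The taurine list had 8 of 12 genes tested. By edgeR 0 were called between genotypes in TN and 0 in MP (0 and 3 at an unadjusted p under 0.05, and 0 by DESeq2 in each), with medians of 0.01 and 0.13. From TN to MP, 2 rose and 3 fell in WT, with a median of -0.38, and 2 rose and 4 fell in mCre, with a median of -0.30. Slc16a6, which exports taurine, moved opposite to Slc6a6. It rose by 0.41 in WT (SE 0.0659, edgeR adjusted p = 6.97e-05) and by 0.51 in mCre (SE 0.063, edgeR adjusted p = 2.83e-06). Csad, which makes the taurine precursor hypotaurine, fell by 0.46 in WT (edgeR adjusted p = 0.0152) and by 0.59 in mCre (edgeR adjusted p = 0.00261). The former call was lost without WT-TN replicate 2 or WT-MP replicate 2 (up to 0.222), the latter without mCre-TN replicate 1 (0.0602). Slc36a4, an amino acid transporter of internal membranes, fell by 0.88 in WT (edgeR adjusted p = 8.2e-06) and by 0.52 in mCre (edgeR adjusted p = 0.00132).

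Betaine and choline genes had 9 of 14 tested and 0 calls by edgeR between genotypes in either subset (1 at an unadjusted p under 0.05 in each, and 0 by DESeq2 in each), with medians of -0.04 in TN and -0.02 in MP. From TN to MP, 0 rose and 4 fell in WT, and 0 rose and 3 fell in mCre, with a median of -0.26 in both. Slc44a2, a choline transporter, fell from 632 ± 15.9 to 496 ± 13.9 CPM in WT (SD, n = 2), by 0.35 on the log2 scale (edgeR adjusted p = 1.28e-05). In mCre it fell by 0.36 (edgeR adjusted p = 9.16e-06). Chdh, the enzyme that starts betaine synthesis from choline, had 2 and 14 counts in WT-TN, 66 and 29 in mCre-TN, and 0 to 2 in each MP library. It was called lower in MP in WT (edgeR adjusted p = 0.018, lost without WT-TN replicate 2 or WT-MP replicate 2, up to 0.495) and in mCre (edgeR adjusted p = 8.94e-05).

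Genes of the osmotic response and volume regulation had 19 of 21 tested. By edgeR, in TN 0 were called higher and 3 lower in mCre, and in MP 0 higher and 1 lower, with medians of 0.00 and -0.02. In TN 6 and in MP 7 had an unadjusted edgeR p under 0.05, and DESeq2 called 2 in each. Nfat5, the transcription factor of the osmotic response, had 116 ± 10.9 CPM in WT-TN and 116 ± 7.14 CPM in mCre-TN, and 94.2 ± 1.9 CPM in WT-MP and 88.8 ± 4.02 CPM in mCre-MP (SD, n = 2). It was not called between genotypes, and it fell from TN to MP by 0.30 in WT (edgeR adjusted p = 0.00129) and by 0.38 in mCre (edgeR adjusted p = 0.000104). The aldose reductase gene Akr1b3 and the inositol transporter gene Slc5a3, known targets of NFAT5 named after their values were seen, were not called between genotypes, whereas Slc38a2, another known target, was called lower in mCre-TN. Akr1b3 had log2 fold changes of -0.03 (SE 0.0516) in TN and 0.05 (SE 0.0506) in MP. Slc5a3 had -0.32 (SE 0.123, edgeR unadjusted p = 0.0162) in TN and -0.34 (SE 0.124, edgeR unadjusted p = 0.0124) in MP. Sgk1, a kinase that acts on many transporters, had 185.9 and 188.2 CPM in WT-MP against 152.6 and 151.9 CPM in mCre-MP. It fell by 0.30 in mCre-MP (SE 0.0511, edgeR adjusted p = 0.00176).

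The calls of this list in TN were small and depended on single libraries. Slc38a2, a neutral amino acid transporter, fell by 0.24 (edgeR adjusted p = 0.0149, up to 0.11 without WT-TN replicate 1 or either mCre-TN replicate). Slc12a7, a potassium chloride cotransporter, fell by 0.20 (edgeR adjusted p = 0.0233, up to 0.153, lost without the same libraries and with only the compared groups fitted). Aqp9, a glycerol and water channel, fell by 0.59 (edgeR adjusted p = 0.0458), and that call was lost in 9 of 15 alternatives, among them DESeq2 and the omission of any WT library or of either mCre-TN replicate (up to 0.19). Between subsets the same list had 3 higher and 9 lower in WT, and 5 higher and 8 lower in mCre. Aqp9 rose from 4.43 ± 0.42 to 60.2 ± 0.0189 CPM in WT and from 2.91 ± 0.0504 to 51.6 ± 4.07 CPM in mCre (SD, n = 2; edgeR adjusted p = 1.58e-15 and 3.52e-16). Lrrc8a, the essential subunit of the volume-regulated anion channel through which cells release taurine, fell by 0.92 in WT (edgeR adjusted p = 7.16e-07) and by 0.90 in mCre (edgeR adjusted p = 7.59e-07).

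Among amino acid transporters of T cells, 13 of 14 were tested, and 2 were called higher and 0 lower in mCre in each subset, with medians of 0.12 in TN and 0.04 in MP. Slc7a5, the catalytic chain of the leucine transporter LAT1, had 58.53 and 52.1 CPM in WT-TN against 72.72 and 85.5 CPM in mCre-TN. The MP libraries had 55.57 and 55.42 CPM in WT against 87.66 and 82.8 CPM in mCre. Its genotypes did not overlap in either subset. It rose by 0.52 in TN (SE 0.0765, edgeR adjusted p = 0.000751) and by 0.62 in MP (SE 0.0743, edgeR adjusted p = 8.94e-05), in all 15 alternatives. Slc7a1, an arginine transporter, rose by 0.36 in TN (SE 0.0592, edgeR adjusted p = 0.00143) and by 0.30 in MP (SE 0.0576, edgeR adjusted p = 0.00477). The call in MP was lost without WT-MP replicate 1 or mCre-MP replicate 1 (adjusted p up to 0.106 in edgeR). Slc43a1, another leucine transporter gene, rose from TN to MP by 2.76 in WT (edgeR adjusted p = 4.73e-08) and by 1.59 in mCre (edgeR adjusted p = 7.7e-06).

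**Figure D4:**
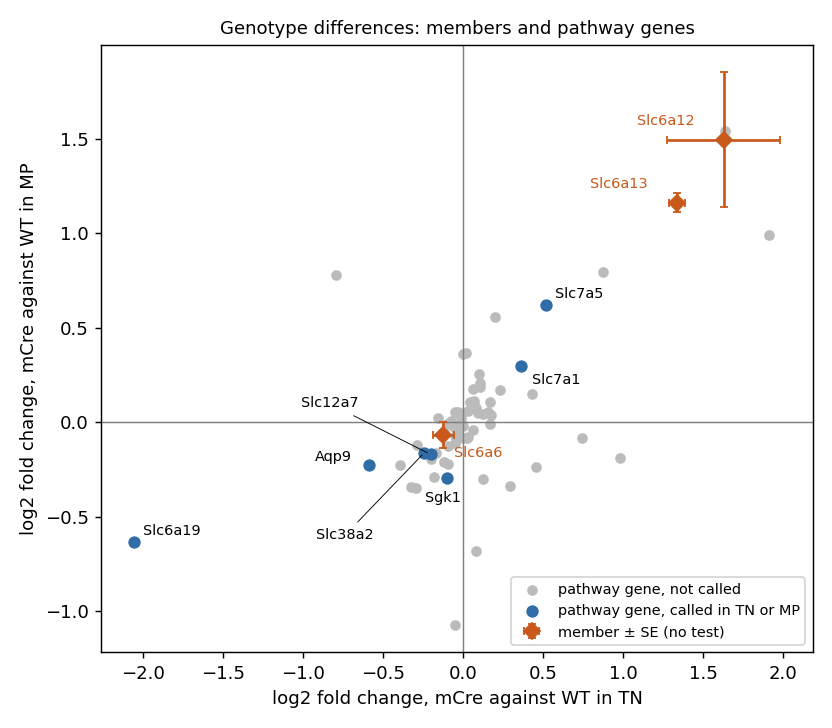
Log2 fold change of mCre against WT in TN (x axis) and in MP (y axis) for the 66 tested pathway genes and the 3 transporters, the latter with SE. The axes use different libraries; Slc6a13 lies at 1.34 and 1.16 and Slc6a6 at -0.12 and -0.07, and the pathway gene beside Slc6a12 is Slc1a4, at 1.64 and 1.54, which was not called.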

How the data were processed

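The deposited table holds raw counts of reads per gene symbol, which the authors made with Trim Galore, HISAT2 and featureCounts on mm10, per the submitters' processing notes. No source used here gives the versions, annotation, strand setting or multi-mapping rule; libraries were strand-preserving, per the labels' protocols. The table had 29426 rows and 0 that named no gene. The main test was edgeR's quasi-likelihood test (version 4.0.16, R 4.3.3), with TMM scaling and edgeR's expression filter, on all 8 libraries with 4 group means. It was two-sided, with Benjamini-Hochberg adjustment over 12313 genes and calls at an adjusted p under 0.05. CPM is the count scaled to the TMM-adjusted library size; log2 CPM used a prior count of 2. Alternatives were DESeq2 1.42.0, other scaling, no filter, only the compared groups, a replicate block and each library left out. The procedure was tested on simulated data. Members, lists and naming rule (all members; list genes called between genotypes; up to 4 list genes per subset contrast; neighbours; most alike genes) were chosen with earlier results of these data known. Slc2a3, Nfat5, Akr1b3, Slc5a3, Slc6a8, Slc6a20b, Slc1a4, Gad1, Gad2 and Gabarapl1 are named outside that rule, after their values were seen. Replicate numbers were not treated as pairs in the main test. Gene positions, exons and untranslated regions came from GENCODE M21, and promoter and microRNA sequences from RefSeq. The list counts include tested genes that are not named.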

Additional observations from a re-analysis of the deposited data

How the results depend on the processing

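Without the expression filter the genes called between genotypes numbered 783 in TN (427 with it) and 888 in MP (498 with it), and those of the interaction 81 (16 with it); DESeq2 called 26 in the interaction. Leaving out 1 library gave 204 (without mCre-TN replicate 2) to 446 calls in TN, with 207 without WT-TN replicate 2, and 195 (without WT-MP replicate 2) to 593 in MP, where WT-MP replicate 1 left out gave 264, and mCre-MP replicate 1 or 2 left out gave 308 or 254. The subset contrasts gave 2879 to 3836 calls in WT and 2797 to 4187 in mCre, and the interaction 9 to 32. The cause was not tested.

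With 1 library left out, the log2 fold changes of Slc6a13 ranged from 1.286 to 1.384 (mCre against WT in TN), 1.134 to 1.177 (in MP), -0.083 to 0.013 (MP against TN in WT), -0.26 to -0.172 (in mCre) and -0.227 to -0.136 (interaction). Those of Slc6a12 ranged from 0.976 to 2.027, 1.374 to 1.617, -0.421 to -0.105, -0.828 to 0.23 and -0.544 to 0.515. Those of Slc6a6 ranged from -0.216 to -0.038, -0.15 to 0.001, -0.534 to -0.355, -0.466 to -0.324 and -0.04 to 0.147. A group left with 1 library was assumed to vary like the others. With the replicate block, 548 genes were called in TN, 617 in MP, 4036 and 4145 between subsets in WT and mCre and 18 in the interaction, and Slc6a13 stood at 1.335 and 1.162, Slc6a12 at 1.562 and 1.519 and Slc6a6 at -0.126 and -0.067 between genotypes. Differences between replicates 1 and 2 correlated at 0.109 between WT-TN and WT-MP and at 0.077 between mCre-TN and mCre-MP. Between groups of different genotype they correlated at -0.045 to -0.014. These weak correlations cannot decide whether equal numbers pair the TN and MP libraries of a genotype. The replicate block used the same term for both genotypes, so it does not model such pairs. Of 854 values of other named genes under the alternatives, 788 kept their side of the threshold, 66 fell short of it and 0 reversed. Among the 3 transporters, Slc6a12 had the fewest counts, with 38 counts over WT-TN and 43 over WT-MP.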
